A study of Mus musculus with 3 samples.

Results

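The genes of glycolysis and of the response to low oxygen were examined in WT mouse embryonic fibroblasts (MEFs), which are primary connective tissue cells grown from embryos. The set holds 34 genes named for their place in these pathways by a rule that does not use their measured levels, though with earlier results of these data known, and all 34 have a row among the 21782 genes of the count table. Of these, 26 encode glucose and lactate transporters, glycolytic enzymes and their regulators, and 8 encode oxygen sensors and targets of the hypoxia response. RNA-seq was made from polyA+ RNA of asynchronous WT MEFs, with 1 library from each of 3 clones cultured in DMEM with 20% FBS and no other treatment. No mutant or low-oxygen sample belongs to these libraries, so the comparisons are between genes and between clones. With 1 library per clone, a clone cannot be told apart from its culture or its library.

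Glycolysis splits glucose into pyruvate in the cytosol. Glucose enters through GLUT transporters, is trapped by hexokinase, passes the regulated phosphofructokinase step and is cut into triose phosphates. The steps from GAPDH to pyruvate kinase then yield ATP, and lactate dehydrogenase turns pyruvate into lactate, which leaves through monocarboxylate transporters. Several steps can be run by enzymes from different genes, such as the A and B subunits of lactate dehydrogenase. When oxygen is present, prolyl hydroxylases of the EGLN family mark HIF1A for destruction by the VHL ubiquitin ligase. When oxygen is low, HIF1A accumulates, pairs with ARNT and binds promoters with the core sequence ACGTG or GCGTG, many of them in front of glycolytic genes. Transcript counts do not report the stability of the HIF1A protein.

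The libraries held 25261357, 22594316 and 24791198 counts in clones 1, 2 and 3. Levels are given as counts per 1000000 counts after TMM scaling of the library sizes (CPM). Levels of different genes are compared only as CPM per kb of transcript, for which the annotated transcript with the longest coding sequence was used. All 11 fibroblast markers were expressed, with Col1a1 at 32052, 25940 and 25148 CPM. Of 13 macrophage markers in the table, 12 had enough counts to be tested and all 12 were highest in clone 2. Their summed level was 406, 1909 and 336 CPM in clones 1, 2 and 3. Csf1r, the receptor that macrophages depend on, was 4.73-fold higher in clone 2 than in the lowest clone. All 6 proliferation markers were lowest in clone 1, with a sum of 368, 723 and 609 CPM, and all 3 arrest markers were highest there, with a sum of 587, 411 and 464 CPM. Summed levels of erythroid and epithelial markers stayed at or under 0.161 and 7.09 CPM, and of neuron, endothelial, muscle and astrocyte markers within 82.3 to 90.5, 8.01 to 13.4, 207 to 232 and 223 to 342 CPM. The muscle sum came mostly from Acta1 (130, 169 and 122 CPM) and Des (71.6, 31.1 and 96.5 CPM), the neuron sum from Tubb3, the astrocyte sum from Gja1 and the endothelial sum from Kdr. The muscle marker Ckm, the neuron marker Rbfox3 and the endothelial marker Tie1 were at 0 counts in every clone. Gfap of astrocytes had at most 1 count. The part of these other cells and of cell division in the differences below was not tested, and fewer cells of a type cannot be told apart from less RNA per cell.

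Of the 34 genes, 32 were expressed, which means at least 1 CPM in each of the 3 clones, as were 11367 genes of the table. The exceptions were Aldoc, the brain aldolase, with 10, 11 and 11 counts, and Car9, a carbonic anhydrase induced by low oxygen, with 7, 11 and 5 counts. The 26 glycolysis genes together took 0.563%, 0.682% and 0.638% of all counts in clones 1, 2 and 3, whereas the 8 oxygen and hypoxia genes took 0.0195%, 0.0197% and 0.0224%. Pkm, which encodes pyruvate kinase M, stood highest of the 34 at 726 ± 107 CPM per kb (SD, n = 3 clones), with 637, 844 and 697 CPM per kb in clones 1, 2 and 3. Gapdh followed at 480 ± 37.3 CPM per kb and Aldoa at 409 ± 27.3, and the ranges of these neighbours over the clones overlapped. Ldha reached 367 ± 69.0 CPM per kb, Pgk1 289 ± 38.6, Pgam1 240 ± 12.7, Tpi1 164 ± 14.3 and Gpi1 117 ± 2.68. The Pkm range over the clones lay apart from that of Gapdh, while the Ldha range overlapped those of Aldoa above it and Pgk1 below it. Within each clone, per kb of transcript, Gapdh exceeded Aldoa, Aldoa exceeded Ldha and Ldha exceeded Pgk1. The gap from Aldoa to Ldha in clone 2 was small, at 438 against 437 CPM per kb. At the other end, Car9 and Aldoc both had 0.159 CPM per kb.

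**Figure D1:**
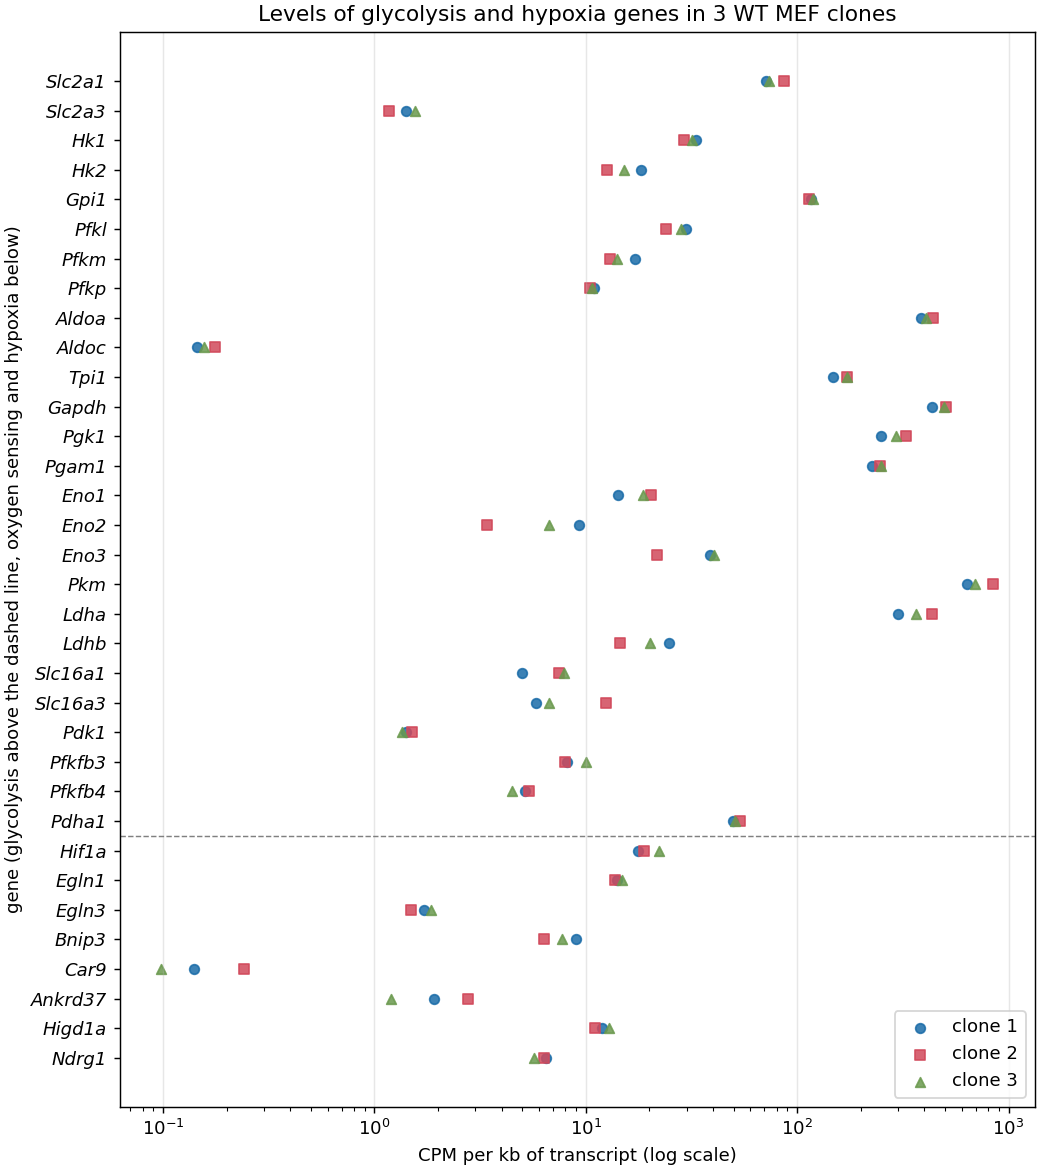
Levels of the 34 genes in CPM per kb of transcript on a log axis, in pathway order from top to bottom, with 1 point per clone. Pkm is highest at 726 CPM per kb, the 7 enzymes from Gpi1 to Ldha named in the text lie between 117 and 480, and Aldoc and Car9 lie near 0.159.

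The core bound by HIF was searched in the promoters, because many of these genes are textbook HIF targets. The choice by name did not read their sequence, but a high share of cores may follow from choosing such targets. The letters ACGTG and GCGTG were searched on both strands, where ACGTG on both strands can overlap as CACGTG, in windows from 250 bases before to 50 bases after each RefSeq transcription start (GRCm38). Of the 34 genes, 32 had a promoter entry, and Slc2a3 and Ndrg1 had none. At least 1 core was present in 37 of 45 promoters (82.2%) and in 29 of 32 genes. The same was true of 43.8% of all 32851 promoters and of 62.3% of the 11838 promoters of expressed genes. Counted by gene, the share was 46.7% of all 27025 genes. All 7 promoters of oxygen and hypoxia genes held a core. A match is a description of letters and was not tested for binding. Windows of 30 bases are printed below for Slc2a1 and Ldha, which dominate the transcripts of their steps, and for Pgk1. They are also printed for Slc16a3, the lactate exporter that stood highest in clone 2, and for Bnip3, Ankrd37 and Car9, hypoxia targets. The capitals mark the core on either strand, and each sequence reads 5′ to 3′ along the gene's own strand.
Slc2a1, chr4:119108697-119108726, plus strand: gtcccgccccggACGTGctccccaggcccc
Pgk1, chrX:106186938-106186967, plus strand: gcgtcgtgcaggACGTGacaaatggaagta
Ldha, chr7:46845745-46845774, plus strand: ggcccagcctaCACGTGggttcccgCACGT
Slc16a3, chr11:120949037-120949066, plus strand: gtgACGTGcgcgggggACGTGccgcgcgac
Bnip3, chr7:138909597-138909626, minus strand: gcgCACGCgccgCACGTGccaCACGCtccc
Ankrd37, chr8:45999985-46000014, minus strand: ttcactgcgCACGCGTGctgcggccgcctg
Car9, chr4:43506996-43507025, plus strand: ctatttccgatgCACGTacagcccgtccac

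The windows of Ldha, Slc16a3, Bnip3 and Ankrd37 each hold more than 1 core, and that of Car9 holds 1. A core near the start was therefore found both in a gene with 367 CPM per kb (Ldha) and in a gene with 5 to 11 counts per library (Car9).

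Glucose transporter transcripts came mainly from Slc2a1, which encodes GLUT1, the transporter of basal glucose uptake. Slc2a1 (chromosome 4, 119108711 to 119137983, plus strand, 10 exons) had 71.1, 86.5 and 73.6 CPM per kb in clones 1, 2 and 3. Slc2a3, encoding the high-affinity GLUT3 of neurons, had 1.40, 1.18 and 1.55 CPM per kb. The Slc2a1 share of these transporters was 98.2% ± 0.38 per kb (SD, n = 3). Over 11 genes of the Slc2a family, Slc2a1 took 76.5% ± 2.50. Slc2a8 and Slc2a10 had 8.25% ± 1.87 and 8.08% ± 0.65, with Slc2a8 ahead in clone 1 and Slc2a10 in clones 2 and 3. Slc2a2, the liver and islet transporter, was at 0 counts in every clone, which allows up to 3 counts per library.

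Hexokinase transcripts came mainly from Hk1, the widely expressed form, and Hk2, a form known to be induced by insulin and by HIF. Hk1 had 33.3, 29.1 and 31.8 CPM per kb and Hk2 had 18.2, 12.6 and 15.1 CPM per kb in clones 1, 2 and 3. Hk1 was higher than Hk2 in every clone, with a share of 67.4% ± 2.58 of both per kb. In raw counts the Hk1 share was 56.1% in clone 1 (95% Wilson interval 54.8 to 57.4), 61.7% in clone 2 (60.2 to 63.2) and 59.5% in clone 3 (58.2 to 60.8). These intervals cover counting error only. Per kb of all annotated exons, which cover 8532 bp in Hk1 and 5969 bp in Hk2, the share was 50.3% ± 2.92, so the order of both genes rests on the length chosen. Hk3, the hexokinase known from leukocytes, had 62, 230 and 56 counts, so its share of all hexokinases was 7.05% in clone 2 and 1.48% and 1.45% in clones 1 and 3. This excess of Hk3 in clone 2 lay beside that of the macrophage markers, and the link was not tested. Adpgk, the ADP-dependent glucokinase, was read among the other glycolysis genes and is not part of these shares. It had 44.4, 53.7 and 46.7 CPM per kb in clones 1, 2 and 3, above Hk1 in every clone.

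Phosphofructokinase transcripts came from all 3 of its genes. Pfkl, the liver type, had 29.7, 24.0 and 28.3 CPM per kb, Pfkm, the muscle type, had 17.1, 13.1 and 14.0, and Pfkp, the platelet type, had 10.9, 10.5 and 10.7. The shares were 51.8% ± 1.56 for Pfkl, 27.8% ± 1.66 for Pfkm and 20.4% ± 1.59 for Pfkp, and this order was the same in every clone. Between the phosphofructokinase step and its neighbours, Gpi1, the glucose phosphate isomerase before it, had 116, 114 and 119 CPM per kb. Transcripts of aldolase after it were almost wholly Aldoa, with 383, 438 and 406 CPM per kb and a share of 99.96% ± 0.0012 against Aldoc. Tpi1, which interconverts the triose phosphates, had 148, 173 and 173 CPM per kb.

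Transcripts of the steps that yield ATP were dominated by single genes, except for enolase. Gapdh had 437, 504 and 498 CPM per kb, Pgk1 249, 326 and 292, and Pgam1 226, 246 and 249. The testis genes Gapdhs and Pgk2 had at most 1 count, and Pgam2 of muscle had 9, 6 and 6 counts, leaving Pgam1 with 99.9% ± 0.041 of its step per kb. Pklr, the pyruvate kinase of liver and red cells, had 1, 0 and 0 counts beside 38483, 46303 and 42805 counts of Pkm. Counts per gene do not separate the M1 and M2 splice forms of Pkm, so the choice between them is not reported.

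As counted here, enolase was the lowest of the steps from GAPDH to lactate dehydrogenase. The counts of Eno1b, described below, were not included, so the level of the whole step is not settled. Eno1, the form of most tissues, had 716, 928 and 952 counts, or 14.2, 20.3 and 18.6 CPM per kb, against 13807, 14474 and 16003 counts for Gapdh. Eno3, the muscle enolase, had 1497, 765 and 1594 counts and stood at 38.5, 21.7 and 40.4 CPM per kb, and Eno2, the neuronal enolase, had 9.25, 3.41 and 6.70 CPM per kb. Taken at face value, Eno3 held 57.1% ± 8.11 of the step per kb, Eno1 32.0% ± 11.3 and Eno2 10.9% ± 3.75. Des, a muscle marker, was like Eno3 lowest in clone 2 and highest in clone 3, at 71.6, 31.1 and 96.5 CPM, while Acta1 was highest in clone 2. The muscle markers other than Acta1, Des and Tnnt2 had at most 47 counts in any clone. Myh3 had 6, 0 and 47 counts, Actc1 4, 1 and 38, Ttn 3, 0 and 18, and Myog 1, 0 and 10. These were, like Eno3, lowest in clone 2 and highest in clone 3, as were Tnnt1 and Tnnt2, though Tnnt2 was not called. Myod1, with 0, 1 and 4 counts, was lowest in clone 1, and Ckm had 0 counts. The part of muscle-type cells in the Eno3 level was not tested.

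The enolase order rests on reads that may fit more than 1 gene. When the Eno1 transcript was cut into stretches of the read length of 86 nt, 85.1% of them matched an annotated gene elsewhere with at most 2 mismatches and 62.4% matched exactly, mostly Eno1b, a gene of nearly the same sequence. The counts of Eno1b were not analysed here. No stretch of Eno3 was shared. When the counts were divided by the unshared stretches only, Eno1 stood at 99.7, 142 and 130 CPM per kb and took 74.4% ± 9.09 of the step, and Eno3 took 21.5% ± 7.06. This division is right only if reads from shared stretches were left out of the counts, and the sources used here do not give how such reads were counted. Per kb of all exons the Eno1 share was 17.6% ± 7.61. The share of Eno1 therefore ran from 17.6% to 74.4% with the length used, and no order of Eno1 and Eno3 is drawn. Eno3 exceeded Eno2 in every clone under each length, by 5.52 ± 1.18 times per kb.

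**Figure D2:**
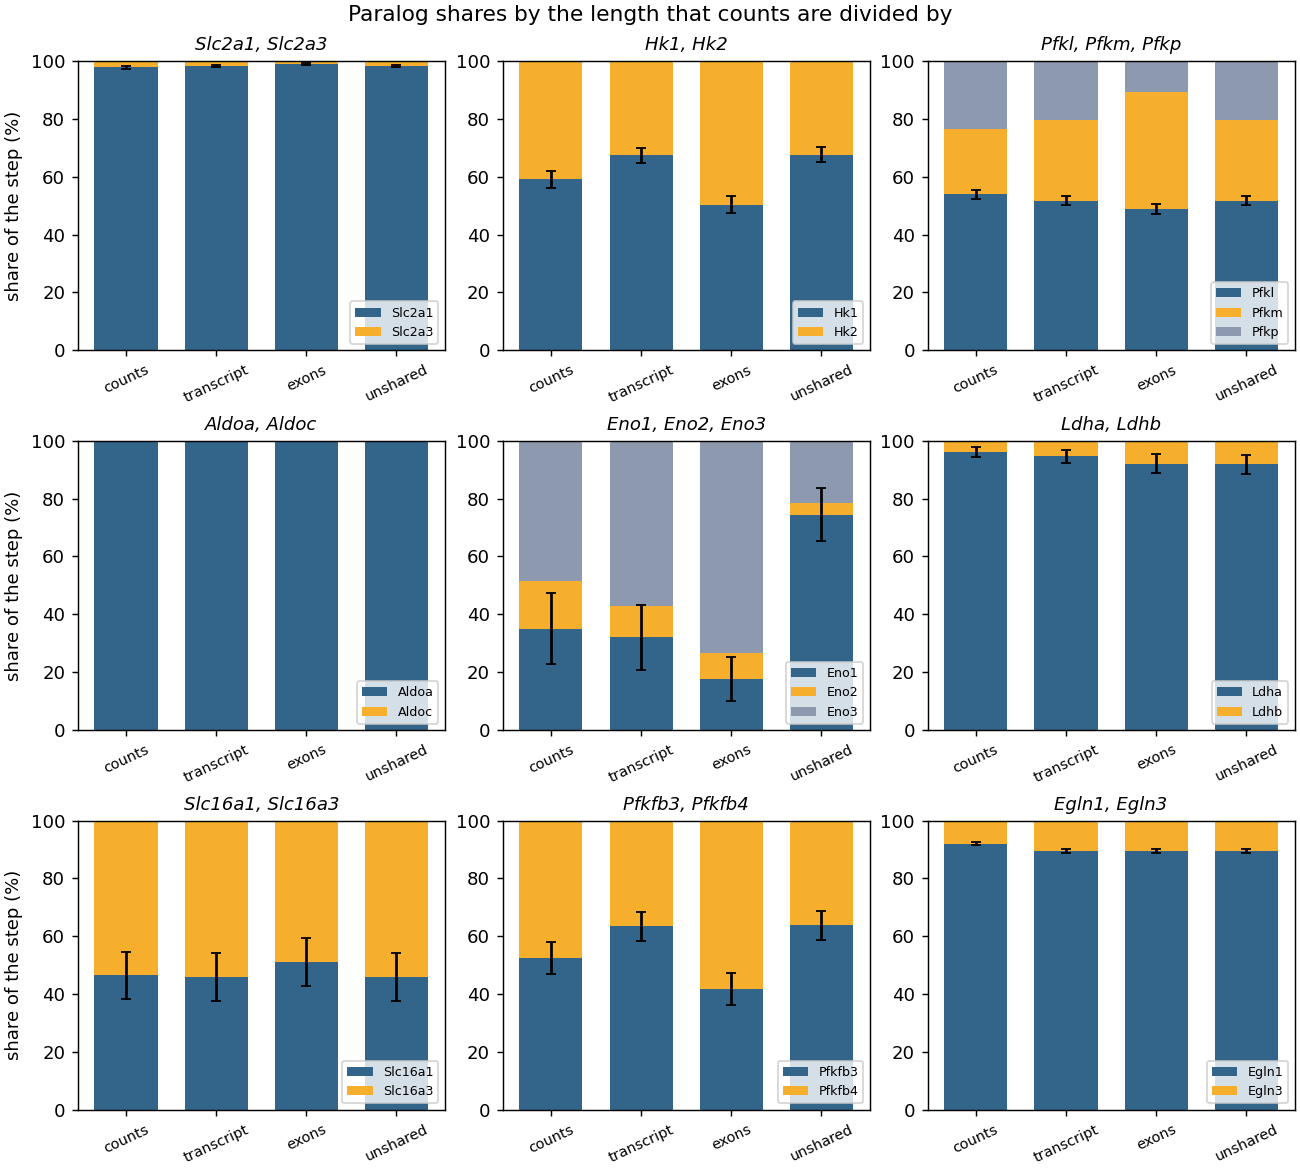
Shares of the paralogs at 9 steps, in percent, from raw counts, per kb of transcript, per kb of all exons and per unshared stretch, as means of 3 clones with the SD of the gene at the base of each bar. Aldoa, Slc2a1 and Ldha dominate under every length, while the enolase order turns over, with Eno1 at 32.0% per kb of transcript and 74.4% per unshared stretch.

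Shared sequence was frequent in this pathway. Of the 34 genes, 13 had at least 1 stretch in common with an annotated gene elsewhere in the genome and 21 had none. Stretches in common with a gene that overlaps the same locus were not counted as shared. They were present in 10 of the 34 genes, 6 of them among the 21, with 16.3% of the stretches of Pfkp and 11.3% of those of Ndrg1 as the largest parts among these 6. The shared part was 87.6% for Gapdh, with matches in 200 other genes, and 73.1% for Bnip3, 67.3% for Pgk1, 57.3% for Ldhb, 54.7% for Pkm and 43.6% for Gpi1. It was 40.2% for Pgam1, 34.1% for Ldha, 18.7% for Tpi1, 15.6% for Aldoa, 9.34% for Higd1a and 0.832% for Pdha1. Of the 13 genes that shared the most with them, Aldoart1 and 4930519F09Rik had rows under these symbols among those used here, with at most 7 counts in any clone. The levels of the genes with shared stretches are thus uncertain by an amount that the counts do not show. Per kb of unshared stretches Gapdh would stand at 4152 ± 323 CPM and above Pkm at 1661 ± 244, which turns the order of the highest genes.

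**Figure D3:**
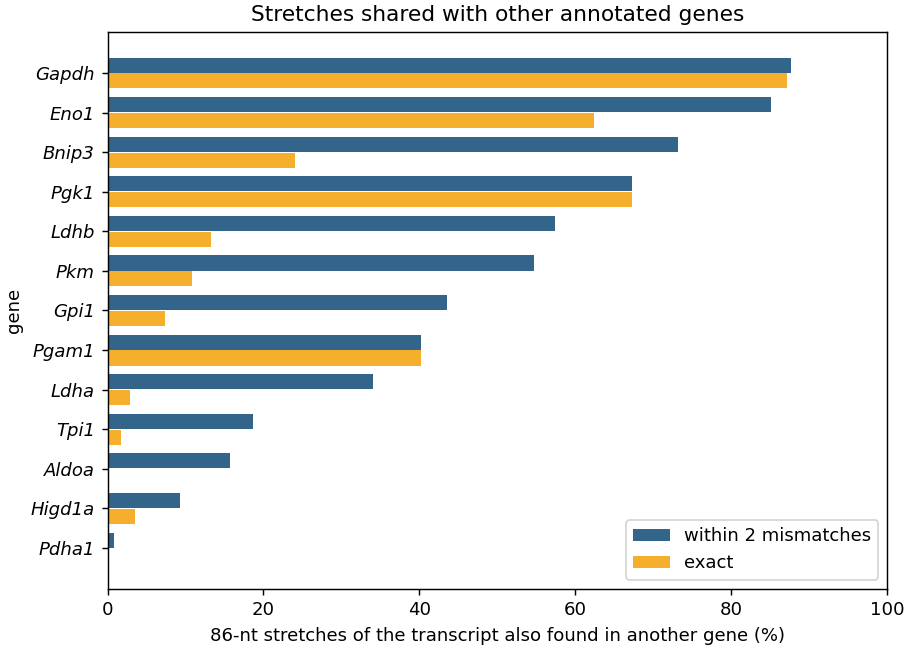
Percent of the 86-nt stretches of each transcript that occur in an annotated gene at another locus, exactly or with at most 2 mismatches, for the 13 genes with any. Gapdh and Eno1 stand highest at 87.6% and 85.1%, and exact matches make up nearly all of the shared part in Gapdh, Pgk1 and Pgam1.

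Lactate dehydrogenase transcripts came mostly from Ldha, the A subunit known for pyruvate reduction in fast glycolysis. Ldha (chromosome 7, 46841475 to 46855627, plus strand, 8 exons) had 299, 437 and 366 CPM per kb in clones 1, 2 and 3, while Ldhb, the heart-type B subunit, had 24.7, 14.5 and 20.1. These genes ranked the clones in opposite orders, and the ratio of Ldha to Ldhb per kb was 12.1, 30.1 and 18.2. The Ldha share was 94.6% ± 2.22 (SD, n = 3), and it was 91.8% ± 3.28 per unshared stretch. Ldhc of testis was at 0 counts.

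Transcripts of the lactate carriers were split nearly evenly on average, though less so in clone 2, and transport itself was not measured. Slc16a1 encodes MCT1, a carrier that moves lactate both ways, and Slc16a3 encodes MCT4, a low-affinity exporter of glycolytic cells and a known HIF target. Slc16a3 had 5.83, 12.45 and 6.70 CPM per kb and Slc16a1 had 4.97, 7.50 and 7.91. Slc16a3 thus led in clones 1 and 2 with shares of 54.0% and 62.4%, and Slc16a1 led in clone 3, where the Slc16a3 share was 45.9%. The mean Slc16a3 share of 54.1% ± 8.26 lay within 1 SD of an even split. Bsg, the chaperone that both carriers need at the membrane, was at 923, 982 and 850 CPM.

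The regulators around the pathway stood at different levels. Per kb, Pdk1 was at percentile 11.7 of the expressed genes, Pfkfb4 at 35.7, Pfkfb3 at 51.0 and Pdha1 at 89.3. PFKFB enzymes make and break the sugar bisphosphate that activates phosphofructokinase, and Pfkfb3 had 8.17, 7.99 and 10.04 CPM per kb against 5.17, 5.38 and 4.47 for Pfkfb4. Pfkfb3 took 63.4% ± 5.07 of this pair per kb but 41.7% ± 5.45 per kb of all exons. Among all PFKFB genes, Pfkfb3 and Pfkfb2 had similar shares, 36.3% ± 4.46 and 33.4% ± 4.58. Pdha1, the catalytic subunit of pyruvate dehydrogenase that sends pyruvate to the citrate cycle, had 49.8, 53.6 and 50.7 CPM per kb. Pdk1, the hypoxia-induced kinase that turns this enzyme off, had 1.41, 1.51 and 1.35 CPM per kb and made up 6.39% ± 0.29 of the PDK transcripts. Pdk3 led the kinases at 57.7% ± 3.10, followed by Pdk4 at 24.3% ± 2.54 and Pdk2 at 11.5% ± 4.20.

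Among the oxygen sensors, Hif1a transcripts stood at 17.7, 18.9 and 22.2 CPM per kb, highest in clone 3. Epas1, which encodes the HIF2A subunit, had 159, 140 and 161 counts, and its mean of 1.15 CPM per kb lay well under that of Hif1a. Egln1, the main prolyl hydroxylase acting on HIF1A under normal oxygen, had 14.0, 13.8 and 14.9 CPM per kb. Egln3, a hydroxylase gene that is itself induced by HIF, had 1.72, 1.48 and 1.84. Egln1 took 89.4% ± 0.75 of the pair of Egln1 and Egln3. With Egln2 added, Egln2 led the family with 54.4% ± 1.32, before Egln1 at 40.8% ± 1.18 and Egln3 at 4.82% ± 0.39 per kb. Vhl was at 16.5, 14.2 and 14.6 CPM.

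The hypoxia targets among the 8 oxygen and hypoxia genes stood at 11.96 CPM per kb of transcript or less, in the range of the lower glycolysis genes such as Pfkp and Eno2. Of the genes named above as induced by HIF or hypoxia but placed with glycolysis, Hk2 had 15.3, Slc16a3 8.33 and Pdk1 1.42 CPM per kb. The limit of 11.96 thus describes this list and not HIF targets as a whole. Higd1a, a mitochondrial survival factor, had 11.9, 11.1 and 12.9 CPM per kb. Bnip3, a receptor for the removal of mitochondria, had 8.94, 6.34 and 7.69 CPM per kb, with the limit that 73.1% of its stretches were shared, mostly with the lincRNA AC160336.1. Per kb of unshared stretches its mean would be 29.9 CPM. Ndrg1 had 6.51, 6.32 and 5.69 CPM per kb, and Ankrd37 1.91, 2.77 and 1.20 from 44, 58 and 28 counts. Car9 is often used as a marker of hypoxic cells, and its 7, 11 and 5 counts amounted to 0.282, 0.488 and 0.198 CPM. No library under low oxygen was measured, so these values do not give an induction.

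Counts of the 34 genes were then compared between clones with a Pearson chi-square test, which sets a gene's 3 counts beside what the scaled library sizes predict, adjusted by Benjamini-Hochberg over 12218 genes. Of 33 members tested, 25 differed between clones beyond counting error (75.8%), against 62.5% of all genes tested. A called difference that reached 2-fold from the lowest to the highest clone was found in 3 members (9.09%), against 7.93% of all genes. The test compares 3 libraries with counting error, which is small at these depths. It calls smaller ratios in genes with more counts, as Gpi1 was called at a ratio of 1.05 and Slc2a3 was not at 1.32. The shares of called genes given here and below were not matched for counts. When the spread between clones was added to counting error, as the common biological coefficient of variation of 0.187 that edgeR fitted to the same clones, 0 members and 314 of 12218 genes were called. In that test 2 members, Eno2 and Slc16a3, passed 0.05 before adjustment (6.06%, against 7.24% of all genes), and their adjusted p-values with the edgeR dispersion across all genes were 0.149 and 0.149. The median coefficient of variation of the 33 members was 0.145, beside 0.158 over all genes tested. This coefficient falls as the level rises in the edgeR trend, so it was also ranked against that trend. In that rank 19 of the 33 members lay above the middle of all genes tested.

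The 3 members with at least 2-fold were Eno2, Ankrd37 and Slc16a3. Eno2 had 25.8, 9.53 and 18.7 CPM in clones 1, 2 and 3, a ratio of 2.71 (chi-square adjusted p = 6.42e-37 across all genes). Ankrd37 had 1.77, 2.57 and 1.11 CPM, a ratio of 2.32 (chi-square adjusted p = 0.0018 across all genes). Slc16a3 had 25.3, 54.0 and 29.1 CPM, a ratio of 2.14 (chi-square adjusted p = 1.23e-68 across all genes). Eno2 and Slc16a3 set clone 2 apart in opposite directions. Without clone 2, 0 members reached 2-fold and 16 were called, and without clone 1 or clone 3 the number with 2-fold was 1 and 2. The shares of all genes called without a clone are not reported here.

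Clone 2 stood at an end of the range for most glycolysis genes. Of the 22 glycolysis genes called, 11 were highest there, namely Slc2a1, Aldoa, Tpi1, Gapdh, Pgk1, Eno1, Pkm, Ldha, Slc16a3, Pfkfb4 and Pdha1. Another 9 were lowest in clone 2 (40.9%, against 34.0%), namely Hk1, Hk2, Gpi1, Pfkl, Pfkm, Eno2, Eno3, Ldhb and Pfkfb3. Clone 1 held the lowest value of 12 of the 22 (54.5%), and clone 3 that of 1, Pfkfb4 (4.55%), against 43.3% and 22.8% of all genes called. Ldha ran from 542 CPM in clone 1 to 793 in clone 2, a ratio of 1.46, and Pkm from 1549 to 2053, a ratio of 1.33. Hk2 ran the other way, from 69.6 CPM in clone 2 to 100 in clone 1, a ratio of 1.44, and Ldhb from 18.9 to 32.2, a ratio of 1.70.

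The genes were also grouped by their place in the pathway. Of 11 genes from Gapdh to lactate export, all 11 were called, against 62.5% of all genes tested. Of these, 8 were lowest in clone 1, as were 43.3% of all genes called, and 6 were highest in clone 2. Of 11 genes from glucose transport to triose phosphate, 8 were called, 5 of them lowest in clone 2 and 3 highest there. Shared sequence was unevenly spread over these genes, since 8 of the 11 genes highest in clone 2 had stretches in common with other genes, against 2 of the 9 genes lowest there. Whether shared reads contribute was not tested, and Slc2a1, Slc16a3 and Pfkfb4 were highest in clone 2 with no stretch shared with a gene elsewhere, though 0.819% of the Slc2a1 stretches overlap a gene at its own locus. Of the 21 members with none, 20 were tested and 13 called (65.0%, near the 62.5% of all genes). Of the 13 members with shared stretches, 12 were called (92.3%). These groups were not matched for counts, and the test calls smaller ratios where counts are higher. Over all genes called, 37.5% were highest and 34.0% lowest in clone 2.

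**Figure D4:**
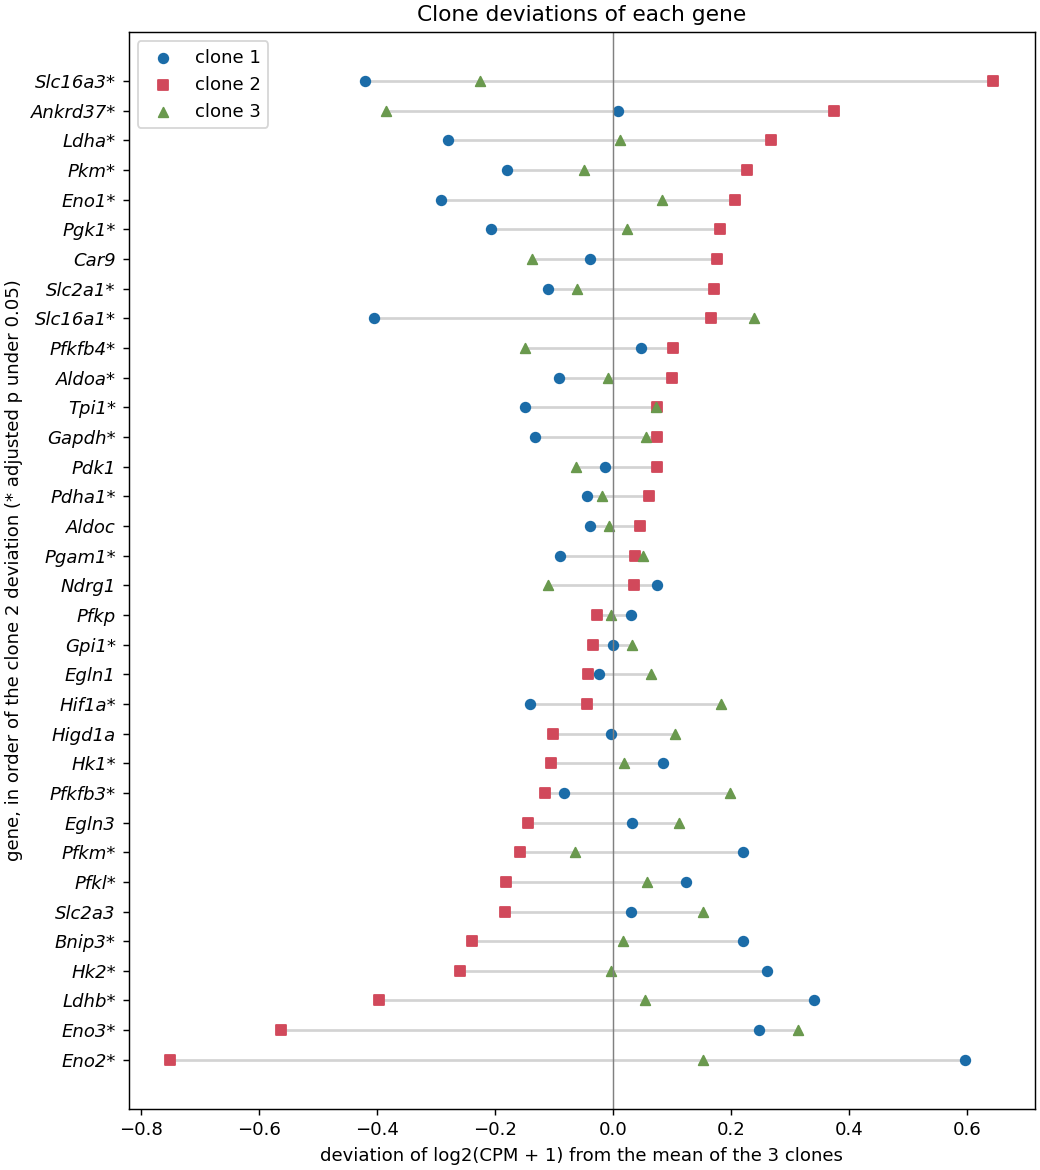
Difference of each clone's log2(CPM + 1) from the average over clones, for each gene, ordered by clone 2, with an asterisk where the chi-square adjusted p was under 0.05. Slc16a3, Ankrd37, Ldha and Pkm lie highest in clone 2 and Eno2, Eno3 and Ldhb lowest, and clone 1 lies lowest for Slc16a3, Ldha and Pkm.

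As a list, the 25 glycolysis genes whose mean reached 1 CPM had median deviations from the average clone of -0.04, 0.06 and 0.02 on the log2 scale in clones 1, 2 and 3. The same median over all genes was -0.01, 0.00 and 0.01. The list holds both genes that were highest and genes that were lowest in clone 2. Their summed level was 5720, 6831 and 6258 CPM, of which Pkm alone made 1549, 2053 and 1695.

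The oxygen and hypoxia genes had no common order of the clones. Of 7 tested, 3 were called (42.9%, against 62.5% of all genes), and each was highest in a different clone. Hif1a was highest in clone 3, with 83.5, 89.3 and 105 CPM and a ratio of 1.25. Bnip3 was highest in clone 1, with 15.7, 11.1 and 13.5 CPM, and Ankrd37 in clone 2. Egln1, Egln3, Higd1a and Ndrg1 did not pass the test, with ratios of 1.08, 1.24, 1.16 and 1.14. The median deviation of the list was 0.01, -0.04 and 0.07 on the log2 scale. Slc2a3, Pfkp, Aldoc and Pdk1 of the glycolysis genes did not pass either, and Pfkp had the smallest ratio of all, 1.04.

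Further genes of the same pathways, chosen with earlier results of these data known, were read in the same way. Of 29 other glycolysis genes in the table, 14 were tested and 9 called (64.3%, against 62.5% of all genes). Hk3, with a ratio of 4.60, was the single 2-fold case. Of 12 genes that bring pyruvate into mitochondria, 7 were called (58.3%), none with 2-fold, and Pdk2 had the largest ratio at 1.86. Of 7 genes for HIF subunits and oxygen sensing, 6 were tested and 2 called (33.3%), Arnt and Arnt2, both lowest in clone 2.

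Of 28 other hypoxia targets in the table, 25 were tested and 21 called (84.0%, against 62.5% of all genes, not matched for counts). Of the 21, 12 were highest in clone 1 (57.1%), 5 in clone 2 (23.8%) and 4 in clone 3 (19.0%), against 2904, 2867 and 1871 of all 7642 genes called. The collagen-modifying enzymes of this list, which fibroblasts use to build matrix, had 97.9 ± 4.57 CPM per kb for P4ha1 and 56.6 ± 12.7 for Plod2. Vegfa, the vascular growth factor, had 247, 226 and 192 CPM. Differences of at least 2-fold were found in 4 of the 25 genes, against 7.93% of all genes. Adm, the vasodilator adrenomedullin, had 45.0, 92.5 and 65.5 CPM, Angptl4 19.7, 30.5 and 13.4, Pdgfb 10.5, 21.9 and 9.15, and Bhlhe40, a transcriptional repressor, 103, 68.2 and 50.6. Adm, Angptl4 and Pdgfb were highest in clone 2, as were Slc16a3 and Ankrd37, whereas Bhlhe40 was highest in clone 1. Epo and Nos2 were at 0 counts in every clone.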

How the data were processed

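RNA-seq of 3 clones of WT MEFs was used. According to the methods of the study, single-end reads of 86 nt were mapped by the authors with TopHat (version 2.0.0), which ran on Bowtie (version 0.12.7) and used Samtools (version 0.1.16). Up to 2 mismatches and 5 positions per read were permitted, and HTSeq counted the reads on mm10 genes. The authors deposited raw counts per gene symbol, with no normalization. The HTSeq version, annotation, strand setting and treatment of reads with several positions are not given in the sources used here, and the submitters' processing notes name mm9. Reads that fit several genes may therefore be lost from, or added to, a gene's count.

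Library sizes were scaled by TMM in edgeR 4.0.16 (R 4.3.3), and the coefficient of variation came from an edgeR fit with an intercept only. Each gene that had 10 or more counts in all 3 clones was tested by Pearson's chi-square (2 degrees of freedom) with Benjamini-Hochberg adjustment over all 12218 genes, with calls at 0.05. The test was checked on counts simulated with counting error alone. The spread between clones was not simulated, so the check does not cover it. Expressed genes had no clone under 1 CPM. Deviations used log2(CPM + 1). Lengths came from GENCODE M21 (GRCm38), where 21681 genes of the table had a length, and promoters from RefSeq (GRCm38.p6). A stretch was shared if it occurred with at most 2 mismatches in a transcript of an annotated gene at another locus, while genes overlapping the same locus were left out of this count. Genome sequence outside transcripts and protein sequences were not used here. Shares of counts have 95% Wilson intervals, and 3 counts is the limit taken for a gene at 0. Reads had no molecular identifiers, so both describe counting error alone.

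All members of the set were named in the text. Some genes of the other lists are not reported here. The members, the other lists and the rules were chosen with earlier results of these data known. Tigar and Adgre1 were not matched to a row by symbol, and Ero1a was read under its older symbol. Nothing in the labels says that the clones came from separate embryos, so the spread between them may be partly technical. In place of the main settings, size factors of DESeq2 1.42.0, unscaled totals, other thresholds and pseudocounts, other lengths, a variance with the common dispersion and the omission of each clone were tried. Python 3.11.15, numpy 2.4.6, pandas 2.3.3 and scipy 1.17.1 were used.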

Additional observations from a re-analysis of the deposited data

How the results depend on the processing

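With a variance that includes the common dispersion, 0 of 33 members were called and 0 with 2-fold, against 25 and 3. That dispersion was fitted to the same 3 clones, so it already holds the differences under test. Over all genes it gave 314 of 12218 called. Among members with no shared stretch, a setting chosen after seeing the data, 13 of 20 tested were called (65.0%, against 62.5% of all genes). Leaving out a clone gave 16 to 20 called members, and 0 to 2 with 2-fold. From raw counts the shares were 59.1% for Hk1, 54.0% for Pfkl, 99.93% for Aldoa, 48.4% for Eno3, 52.5% for Pfkfb3 and, in the pair with Egln3, 92.0% for Egln1 against 89.4% per kb of transcript. Per kb of all exons they were 98.9% for Slc2a1, 50.3% for Hk1, 48.9% for Pfkl, 99.94% for Aldoa, 73.3% for Eno3 and 92.1% for Ldha, and the orders of Slc16a3 at 49.1% and Pfkfb3 at 41.7% reversed. Per unshared stretch Aldoa was at 99.97%, Ldha at 91.8% and Eno3 at 21.5%, behind Eno1. The median deviation in clone 2 ranged from -0.0074 to 0.0439 for the glycolysis genes and from -0.104 to -0.0194 for the hypoxia genes when a clone was left out, with the lowest value without clone 1 in both. The change by length follows from the lengths themselves, and the cause of the others was not tested. DESeq2 size factors and total counts moved no level of the 34 genes by more than the spread between clones, while all exons moved 22 levels and unshared stretches 14. The number of expressed members was 32 under every threshold except 1 count in every clone, which gave 34. No paired analysis was possible because the samples form 1 group. At these depths, Car9 and Aldoc rest on 5 to 11 counts per clone.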

Other observations

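The routes that branch from glycolysis were read in the same 3 clones, from lists chosen with earlier results of these data known, against 62.5% of all genes called by the chi-square test. Of all genes called, 37.5% were highest in clone 2, 43.3% lowest in clone 1 and 34.0% lowest in clone 2. All 8 genes of the pentose phosphate pathway, which makes NADPH and ribose phosphate, were called, 5 of them highest in clone 2 and 6 (75.0%) lowest in clone 1. Pgd, an NADPH-producing dehydrogenase, had 172, 224 and 184 CPM in clones 1, 2 and 3, and Taldo1, the transaldolase, had 90.1, 135 and 104. Rpia, the ribose phosphate isomerase, was the gene with at least 2-fold, at 3.30, 7.01 and 5.86 CPM. Of 5 genes of serine synthesis from 3-phosphoglycerate, 4 were called, all lowest in clone 1. Psat1, its aminotransferase, had 160, 220 and 210 CPM, and Phgdh, which starts the route, had 262, 320 and 272. The Phgdh level has the limit that 80.3% of its stretches were shared with genes elsewhere. The proliferation markers were lowest in clone 1 as well, with a sum of 368, 723 and 609 CPM, and their part in these differences was not tested.

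The 16 genes of the citrate cycle were all expressed, and 10 were called (62.5%, the same share as over all genes). Of these 10, 7 (70.0%) were highest in clone 2 and 8 (80.0%) lowest in clone 1, with no 2-fold difference. Mdh2 had 282, 314 and 296 CPM and Idh3a 73.9, 91.6 and 84.4. Of 9 glycogen genes, 7 were called (77.8%), 5 (71.4%) of them lowest in clone 2. Gyg, the glycogenin that primes the polymer, had 40.5, 31.1 and 36.0 CPM, and Ugp2, which makes the activated glucose, had 47.5, 39.5 and 48.5.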
